A study of Mus musculus with 2 samples.

Results

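The genes described here are 10 interferon-induced genes, Isg15, Mx1, Ifit1, Ifit3, Irf7, Oasl2, Rsad2, Ifitm3, Bst2 and Usp18. They were chosen by symbol with earlier results of these data known, and all 10 were found among the 27998 genes of both matrices. The matrices hold single-cell RNA counts of the epidermis of 2 male C57BL/6J mice in which Chrm3, which encodes muscarinic acetylcholine receptor M3, was knocked out (KO), taken at postnatal day 0. There was 1 library per mouse, and both mice carry the same knockout, so every comparison is between cell classes or between the 2 KO mice. Wild-type (WT) samples were not analysed here. The skin was held overnight in a separation buffer, the epidermis was lifted from the dermis, and dead cells were removed before capture.

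Interferons are secreted proteins that cells release on sensing viral nucleic acid or damage. Type I and type III interferons act through JAK kinases on transcription factors that bind interferon-stimulated response elements in the promoters of their targets, and interferon gamma acts through a separate receptor. The products of these genes block viral entry, replication and release, and some also adjust the signalling itself. In skin the response is known from infection, wounding and autoimmune disease. Laboratory strains such as C57BL/6 carry a defective Mx1 allele, so here Mx1 RNA is a readout of the response and not of antiviral function.

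After the filters the data held 7607 cells of KO mouse 1 and 11881 cells of KO mouse 2, with medians of 10480 and 10577 unique molecular identifiers (UMIs, the counted molecules) per cell. The libraries shared 127 barcode sequences, of which 34 were among the cells kept. Chrm3 itself had 13 UMIs in KO mouse 1 and 19 in KO mouse 2. The place of the deleted part was not given in the sources used here, so these 3′ tags do not check the genotype. Cells were grouped into classes with the members and a further list of interferon genes kept out of the clustering and the naming. The classes were basal interfollicular epidermis (IFE)-like (2797 and 4915 cells in KO mice 1 and 2), suprabasal IFE-like, granular IFE-like, hair follicle-like, sebaceous-like, melanocyte-like, Langerhans cell-like (145 and 193 cells), T cell-like (52 and 38 cells), Merkel-like and dermal-like, and 5 clusters stayed unnamed. Levels are UMIs of the gene scaled to a common class total (counts per 1000000 UMIs, CPM), with exact 95% Poisson or binomial intervals that cover counting error only. Levels of different genes are not compared with each other, since they were not set against transcript length.

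Promoters, taken as 250 bases before to 50 bases after the RefSeq start (GRCm38.p6), were matched for 8 members, and Mx1 and Usp18 were not among them. A core of the interferon-stimulated response element, GAAA followed by any 2 bases and GAAA again, was searched on both strands. They occurred in 6 of the 8 promoters, against 1131 of 32851 promoters in the whole table (3.44%), and in 26 of 75 promoters of the other interferon-induced genes listed. The windows below run from 170 to 41 bases before the start and are shown because they hold the match, in capitals, read 5′ to 3′ on the strand of the gene. Overlapping matches run together, and a match on the opposite strand reads as TTTC, any 2 bases and TTTC.
Isg15 (chr4:156200859-156200988, minus strand): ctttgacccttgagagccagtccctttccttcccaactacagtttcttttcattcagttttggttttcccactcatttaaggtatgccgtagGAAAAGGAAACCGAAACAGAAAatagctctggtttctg
Ifit1 (chr19:34640719-34640848, plus strand): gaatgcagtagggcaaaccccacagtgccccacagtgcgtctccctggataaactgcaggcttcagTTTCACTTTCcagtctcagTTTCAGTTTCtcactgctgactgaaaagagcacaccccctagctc
Ifit3 (chr19:34583359-34583488, plus strand): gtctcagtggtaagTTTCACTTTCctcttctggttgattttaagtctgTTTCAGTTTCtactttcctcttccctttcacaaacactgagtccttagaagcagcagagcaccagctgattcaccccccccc
Rsad2 (chr12:26456493-26456622, minus strand): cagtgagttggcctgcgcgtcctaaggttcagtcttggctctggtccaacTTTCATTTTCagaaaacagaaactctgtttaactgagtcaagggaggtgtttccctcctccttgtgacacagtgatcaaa
Bst2 (chr8:71537513-71537642, minus strand): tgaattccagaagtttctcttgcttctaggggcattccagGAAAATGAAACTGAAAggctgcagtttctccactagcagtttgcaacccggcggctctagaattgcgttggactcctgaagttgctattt
Isg15 held 3 overlapping matches, Ifit1 and Ifit3 held 2 separate ones each, Rsad2 held 1 and Bst2 held 2 that overlap. The 2 matches of Ifitm3 lay just after the start, and the letters were not found in the windows of Irf7 and Oasl2. A match describes the sequence and is not a measured binding site.

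Cells with several of these RNAs at once were rare. A cell was called interferon-responding when at least 5 of the 8 members other than Ifitm3 and Bst2 had a UMI. In all, 32 of 19488 cells met this, 21 in KO mouse 1 and 11 in KO mouse 2. Outside the Langerhans cell-like class, 96.6% of cells had none of the 8 and 578 cells had 1. Only 30 cells had 2, but 13 had 3, 13 had 4, 9 had 5, 5 had 6 and 5 had 7, so the counts fell steeply up to 2 members and slowly beyond.

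**Figure D1:**
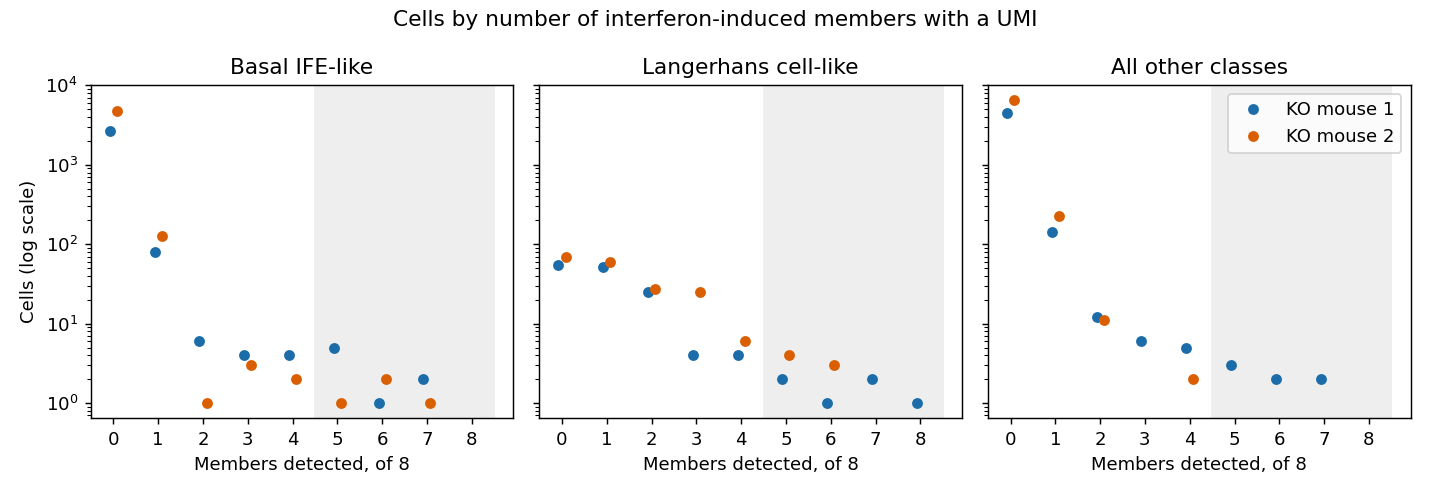
Number of cells (log scale) by how many of the 8 members had a UMI, for basal IFE-like cells, Langerhans cell-like cells and all other classes, with 1 point per KO mouse and the responding range shaded. Outside Langerhans cell-like cells the counts dropped steeply to 2 members and then ran on as a thin tail, which in KO mouse 2 held responding cells in the basal IFE-like class but not in the other classes.

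Of basal IFE-like cells, 8 of 2797 were responding in KO mouse 1 (0.286%, 0.124 to 0.563%) and 4 of 4915 in KO mouse 2 (0.0814%, 0.0222 to 0.208%). These intervals overlapped. Over all classes other than Langerhans cell-like, 15 of 7462 cells responded in KO mouse 1 (0.201%, 0.113 to 0.331%) and 4 of 11688 in KO mouse 2 (0.0342%, 0.00933 to 0.0876%). These intervals did not overlap, but they cover counting error, and with 1 library per mouse a difference between mice cannot be told apart from one between libraries. The further responding cells of KO mouse 1 were 2 suprabasal IFE-like, 2 melanocyte-like, 2 unnamed and 1 dermal-like cell. The share in Langerhans cell-like cells was 6 of 145 in KO mouse 1 (4.14%, 1.53 to 8.79%) and 7 of 193 in KO mouse 2 (3.63%, 1.47 to 7.33%). None lay in a cluster named hair follicle-like, T cell-like, sebaceous-like, granular IFE-like or Merkel-like. Over both mice this allows up to 0.121% of 3044 hair follicle-like and 1.49% of 246 sebaceous-like cells. For 109 granular IFE-like, 90 T cell-like and 39 Merkel-like cells it allows up to 3.33, 4.02 and 9.03%. Other than for hair follicle-like cells, these limits lie above the basal shares, so a share like the basal one could be missed. The hair follicle-like limit lay under the basal share of both mice together, 0.156%, but above that of KO mouse 2. Within KO mice 1 and 2 the hair follicle-like limits were 0.286 and 0.210%, beside basal shares of 0.286 and 0.0814%. A share like the basal one could thus be missed there too.

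How many cells met the definition depended on depth. With each cell thinned to 3000 UMIs, 1 of 2782 basal IFE-like cells of KO mouse 1 and 0 of 4820 of KO mouse 2 still had 5 of the 8 members, so the shares above hold for this depth. Among the barcodes that the filters removed, 2 of 3209 in KO mouse 1 and 1 of 3986 in KO mouse 2 also had 5 of the 8.

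The 12 responding basal IFE-like cells had between 7965 and 28032 UMIs, with a median of 10746 against 9932 in other basal IFE-like cells. They lay in all 6 basal clusters. By their cell cycle genes 7 were scored as G1, with 7965 to 10794 UMIs each, and 5 as G2/M, with 16574 to 28032 UMIs each. The phase thus moved with depth, on which the definition also depends, and its part was not tested. None lay in the top 5% of doublet scores of its mouse, whereas 2 of the 13 responding Langerhans cell-like cells did. All 14 Langerhans cell markers, all 7 T cell markers, all 6 Merkel cell markers and all 5 endothelial markers measured were at 0 UMIs in these 12 cells. In other basal cells these lists stood at 9.63, 0.485, 0.693 and 4.78 CPM. At such levels a count of 0 does not set these 12 cells apart from other basal cells. Of 8 melanocyte markers 7 were at 0, and the other, Dct, had 2 UMIs. The 8 sebaceous markers stood at 333 CPM together in the responding basal cells and at 57.3 CPM in the other basal cells. Of their 61 UMIs, 39 lay in 1 cell of KO mouse 2 with 19882 UMIs and a doublet score at percentile 94.5 of its mouse, just under the top 5%. Without this cell the list stood at 135 CPM in the other 11. Of these markers 3 were at 0 (Scd3, Awat2 and Mc5r), and 7 of the 12 cells had at least 1 UMI of the list, with a median of 1.08 per 10000 UMIs against 0 in other basal cells. The part of this list in the results was not tested. Of 6 dermal markers 4 were at 0, and the list stood at 54.6 CPM against 60 CPM. The 13 hair follicle markers, of which 4 were at 0, stood at 887 CPM against 1958 CPM in KO mouse 1 and at 2312 against 1959 CPM in KO mouse 2. Their median per cell was 10.1 per 10000 UMIs against 10.7 in KO mouse 1 and 26.1 against 11.9 in KO mouse 2. The 13 granular markers, of which 9 were at 0, stood at 175 CPM against 257 CPM. Among the 9 suprabasal markers 2 were at 0, and the list stood at 4373 against 2908 CPM in KO mouse 1 and at 2099 against 4103 CPM in KO mouse 2. The summed level of the 10 basal markers per cell ranged from 29.1 to 629 per 10000 UMIs in the responding cells. It had medians of 347 per 10000 UMIs against 230 in other basal cells in KO mouse 1 and of 223 against 219 in KO mouse 2, while Krt14, a basal keratin, had a fold of 2.25 in KO mouse 1 and 0.956 in KO mouse 2. The 6 immediate early and heat shock genes listed had a median of 18.1 per 10000 UMIs in responding cells and 25.1 in the others. H19, Igf2 and Wnt4, which mark one group of resting basal cells, had folds of 1.14, 1.2 and 1.82 in KO mouse 1 and of 0.424, 0.13 and 0.356 in KO mouse 2. The mice thus went opposite ways for these genes.

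Because the members defined these cells, their levels in them are a description and carry no test. Isg15, a ubiquitin-like protein that is joined to other proteins, had 1 to 13 UMIs with a median of 6 in the 8 cells of KO mouse 1. In the 4 cells of KO mouse 2 it had 2, 5, 9 and 7 UMIs. It was found in all 12 cells and in 1.01% of other basal IFE-like cells. Mx1, a dynamin-like GTPase, had 2 to 9 UMIs with a median of 4 in KO mouse 1 and 8, 3, 5 and 5 UMIs in KO mouse 2. It too was found in all 12 cells, and in 0.364% of the others. Ifit1, which binds the 5′ ends of viral RNA, had 1 to 6 UMIs with a median of 2 in KO mouse 1 and 4, 1, 2 and 1 UMIs in KO mouse 2. Every responding basal cell thus had Isg15, Mx1 and Ifit1 together.

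The other 5 of the 8 were found in some of the cells. Oasl2, related to the oligoadenylate synthetases that sense double-stranded RNA, was found in 9 of the 12 cells with up to 6 UMIs. Irf7, the transcription factor that amplifies interferon production, was found in 8 with up to 7 UMIs. Rsad2, which encodes the antiviral enzyme viperin, was found in 6 with up to 5 UMIs. Ifit3, a partner of Ifit1, and Usp18, a protease that removes ISG15 and dampens the receptor, were each found in 5. Ifit3 had 7 and 2 UMIs in the cells of KO mouse 2 that had it and at most 3 in those of KO mouse 1, whereas Usp18 had 5 UMIs over the 8 cells of KO mouse 1 and 1 over the 4 of KO mouse 2. Reads of Ifit3 may be shared with its near-identical copy Ifit3b, which had 2 UMIs in these cells, so the split between them is uncertain.

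**Figure D2:**
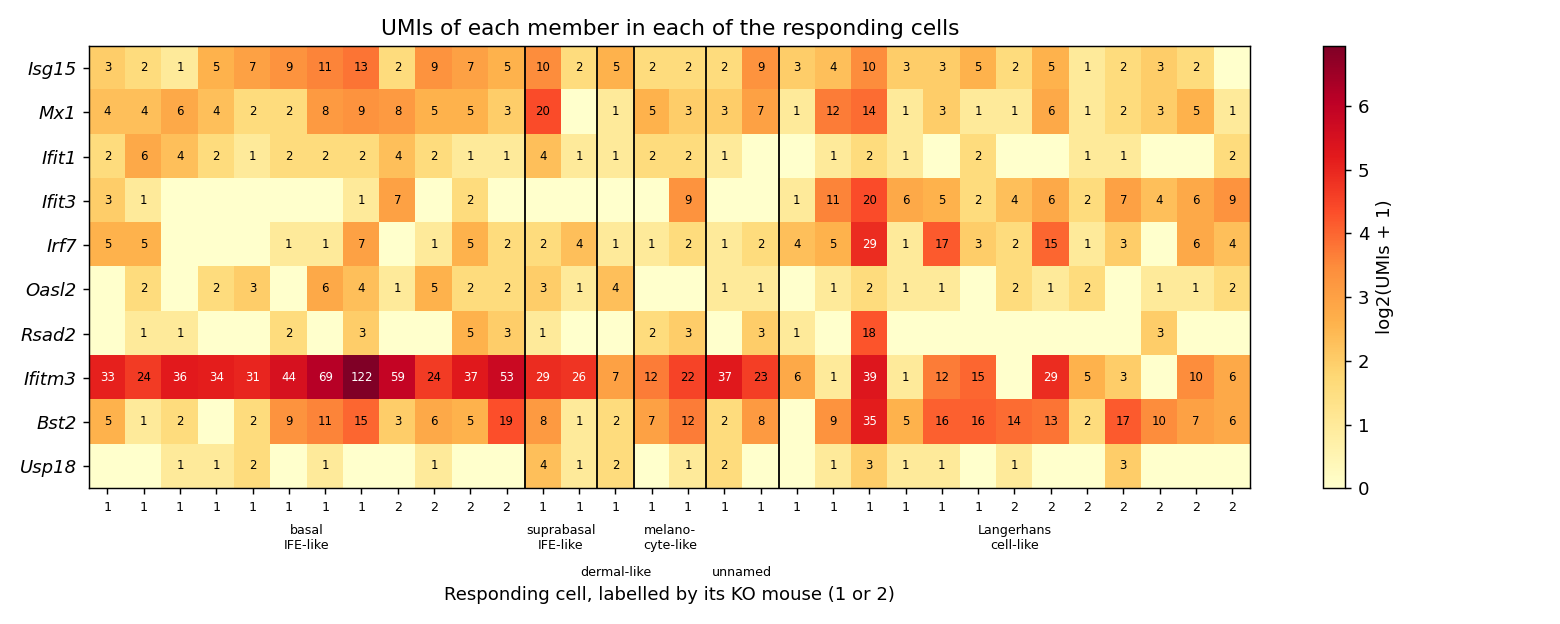
UMIs of each of the 10 members (rows) in each of the 32 responding cells (columns, labelled by KO mouse and grouped by class), with the count printed and coloured as log2(UMIs + 1). Isg15, Mx1 and Ifit1 are present in all 12 basal IFE-like cells, Ifitm3 is high in every one of them, and Ifit3 is present in all 13 Langerhans cell-like cells but in 5 of the 12 basal ones.

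The same cells, 12 of 7712, held a large part of what basal IFE-like cells had of these RNAs. For Mx1 they held 60% of the UMIs in KO mouse 1 and 56.8% in KO mouse 2 (58.4% ± 2.29, SD, n = 2). For Isg15 the shares were 47.7 and 31.1% (39.4% ± 11.7). Over the 8 members that defined the cells, the mean of the mice ran from 20.0% for Irf7 to 93.8% for Rsad2, which had 15 of its 16 basal UMIs there. The lower share of Irf7 went with 110 other basal cells that had it.

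To remove the part of this that the definition itself gives, each of the 8 members was also read in basal cells chosen by at least 4 of the other 7. By this rule Mx1 was found in 12 of 13 cells, at 316 CPM (224 to 432) in KO mouse 1 and 319 CPM (198 to 488) in KO mouse 2, against 0.834 and 0.289 CPM in the remaining basal cells. Ifit1 was found in 12 of 14 cells, at 155 CPM in KO mouse 1 and 107 CPM in KO mouse 2, against 0.289 and 0.126 CPM. Isg15 was found in all 12 cells chosen by the other members. Irf7 was found in 8 of 13, Oasl2 in 9 of 16, Rsad2 in 6 of 18, Ifit3 in 5 of 17 and Usp18 in 5 of 17. Isg15, Mx1 and Ifit1 were thus in nearly every cell that had the other members, while Rsad2, Ifit3 and Usp18 were not detected in most of them at this depth. Rsad2 was at 43.2 CPM in KO mouse 1 and 104 CPM in KO mouse 2 in the cells so chosen, against 1 UMI in the remaining basal cells of both mice.

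Ifitm3 and Bst2 did not enter the definition at all. Ifitm3, a membrane protein that stops viruses from entering the cell, had 24 to 122 UMIs with a median of 35 in the cells of KO mouse 1 and 59, 53, 24 and 37 UMIs in those of KO mouse 2. That was 3350 CPM in KO mouse 1 against 192 CPM in its other basal cells, and 2631 against 182 CPM in KO mouse 2, or 17.4- and 14.5-fold. Bst2, known as tetherin, which holds new virus particles at the surface, had 0 to 15 UMIs with a median of 3.5 in KO mouse 1 and 3, 19, 6 and 5 UMIs in KO mouse 2. Its level was 384 CPM against 3.53 CPM in KO mouse 1 and 502 against 1.86 CPM in KO mouse 2. Ifitm3 was detected in 66.0% of other basal cells and was higher still in the responding ones, while Bst2 was detected in 2.16% of other basal cells and in 11 of the 12 responding ones.

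Other interferon genes were read in the same cells as folds of (CPM + 10) over other basal IFE-like cells, for genes with at least 10 UMIs in the responding cells. Of the 112 genes of the interferon list in the matrices, 39 reached this count and the other 73 did not. A gene that is rare in other basal cells could reach it only by being higher in the responding ones, and the cells were chosen on genes of the same response. The folds are therefore a description, and no count over them is given. The highest was Iigp1, an immunity-related GTPase, at 47.3-fold and found in all 12 cells, with 54 UMIs in KO mouse 1 and 41 in KO mouse 2. Gbp2, a guanylate-binding protein, followed at 46.4-fold but was found in 7 cells. The immunoproteasome subunits Psmb8 and Psmb10 were 22- and 19.5-fold higher, the peptide transporter Tap1 10.5-fold and the chemokine Cxcl10 11-fold. Xaf1, Parp9, Parp12, Nmi and Ly6e lay between 9.98- and 12.3-fold. Ly6a reached 17.9-fold with 53 UMIs in KO mouse 1 and 1 in KO mouse 2, so its fold rests on KO mouse 1.

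Of all genes outside the members, the 15 with the highest such fold and a fold above 1 in both mice ended with H2-T22 at 9.89-fold and Ifi27l2a at 9.86-fold. H2-T22, a class I histocompatibility gene, is not on the interferon list. Ifitm2, which lies beside Ifitm3 and is also inducible, had a fold of 1.16, and Ifitm1 had 0 UMIs in the responding cells. Among the signalling genes, Stat2 was 6.14-fold and Irf9 5.35-fold higher, while Jak1 had a fold of 0.944. Irf9 had 17 UMIs in KO mouse 1 and 0 in KO mouse 2, so its fold rests on KO mouse 1. The sensors of viral RNA Ifih1 and Ddx58 had folds of 9.60 and 4.87. Of the receptor genes, Ifnar1 had a fold of 1.82 and Ifngr1 of 1.10. Within KO mice 1 and 2 the folds of Ifngr1 were 1.21 and 0.399. Those of Jak1 were 1.13 and 0.592, and those of Ifitm2 were 1.27 and 0.933. For Ifngr1, Jak1 and Ifitm2 the mice thus went opposite ways.

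Transcripts of the interferons themselves were hardly detected. Of 11 ligand genes listed, 9 had no UMI in any of the 19488 cells. Ifng, interferon gamma, had 6 UMIs, all in T cell-like cells, 5 of them in KO mouse 1 and 1 in KO mouse 2, and Ifnz had 1 UMI. Ifnb1 had 0 UMIs, and with a floor of 3 counts a count of 0 allows up to 3. The receptors were detected in basal IFE-like cells, with Ifnar1 at 28.6 CPM, Ifnar2 at 32.8 CPM, Ifngr1 at 63.9 CPM and Ifngr2 at 47.0 CPM.

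Reclustering of the interfollicular cells with the interferon genes kept in gave a cluster of 128 cells whose 10 leading genes included Gbp2, Iigp1, Mx1, Isg15, Psmb8 and Ifitm3. Of these, 127 were basal IFE-like, 47 in KO mouse 1 and 80 in KO mouse 2, which is 1.68 and 1.63% of the class. The cluster held 8 responding cells, and 102 of its cells had none of the 8 members. Cygb, Phlda1, Dcn and Fn1, which are not on the interferon list, were also among the 10 leading genes. The cluster is therefore broader than the responding cells. Elsewhere, 2 responding cells lay in a cluster of 777 cells, all named basal IFE-like, led by Hist1h1b and with Top2a among its leading genes. A further 1 lay in a cluster of 540 cells led by Col14a1 and Lhx2. Another 1 lay in a cluster of 489 cells with Lhx2 and Lgr5 among its leading genes. All cells of the clusters of 540 and 489 cells had been named basal IFE-like, although Lhx2 and Lgr5 are on the hair follicle marker list.

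Across the classes, the members followed different patterns. Langerhans cell-like cells had the highest level, over the mean of both mice, of every member but Ifitm3. Within single mice there were 3 exceptions. Ifit1 and Usp18 were higher in T cell-like cells of KO mouse 2, on 2 and 1 UMIs, and Oasl2 was higher in dermal-like cells of KO mouse 1, on 4 UMIs of 1 responding cell. Bst2 was at 362 CPM in KO mouse 1 and 379 CPM in KO mouse 2, and was found in 88.3 and 90.7% of Langerhans cell-like cells. Irf7 was at 81.6 and 61.8 CPM, Ifit3 at 48.7 and 57.7 CPM, Mx1 at 37.3 and 33.0 CPM, Isg15 at 27.8 and 18.6 CPM and Oasl2 at 15.8 and 23.7 CPM. Ifit1 was at 6.33 and 4.65 CPM and Usp18 at 10.1 and 2.32 CPM. Rsad2 was at 13.3 and 1.39 CPM, and 18 of its 21 UMIs in KO mouse 1 came from 1 cell, which had all 8 members.

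**Figure D3:**
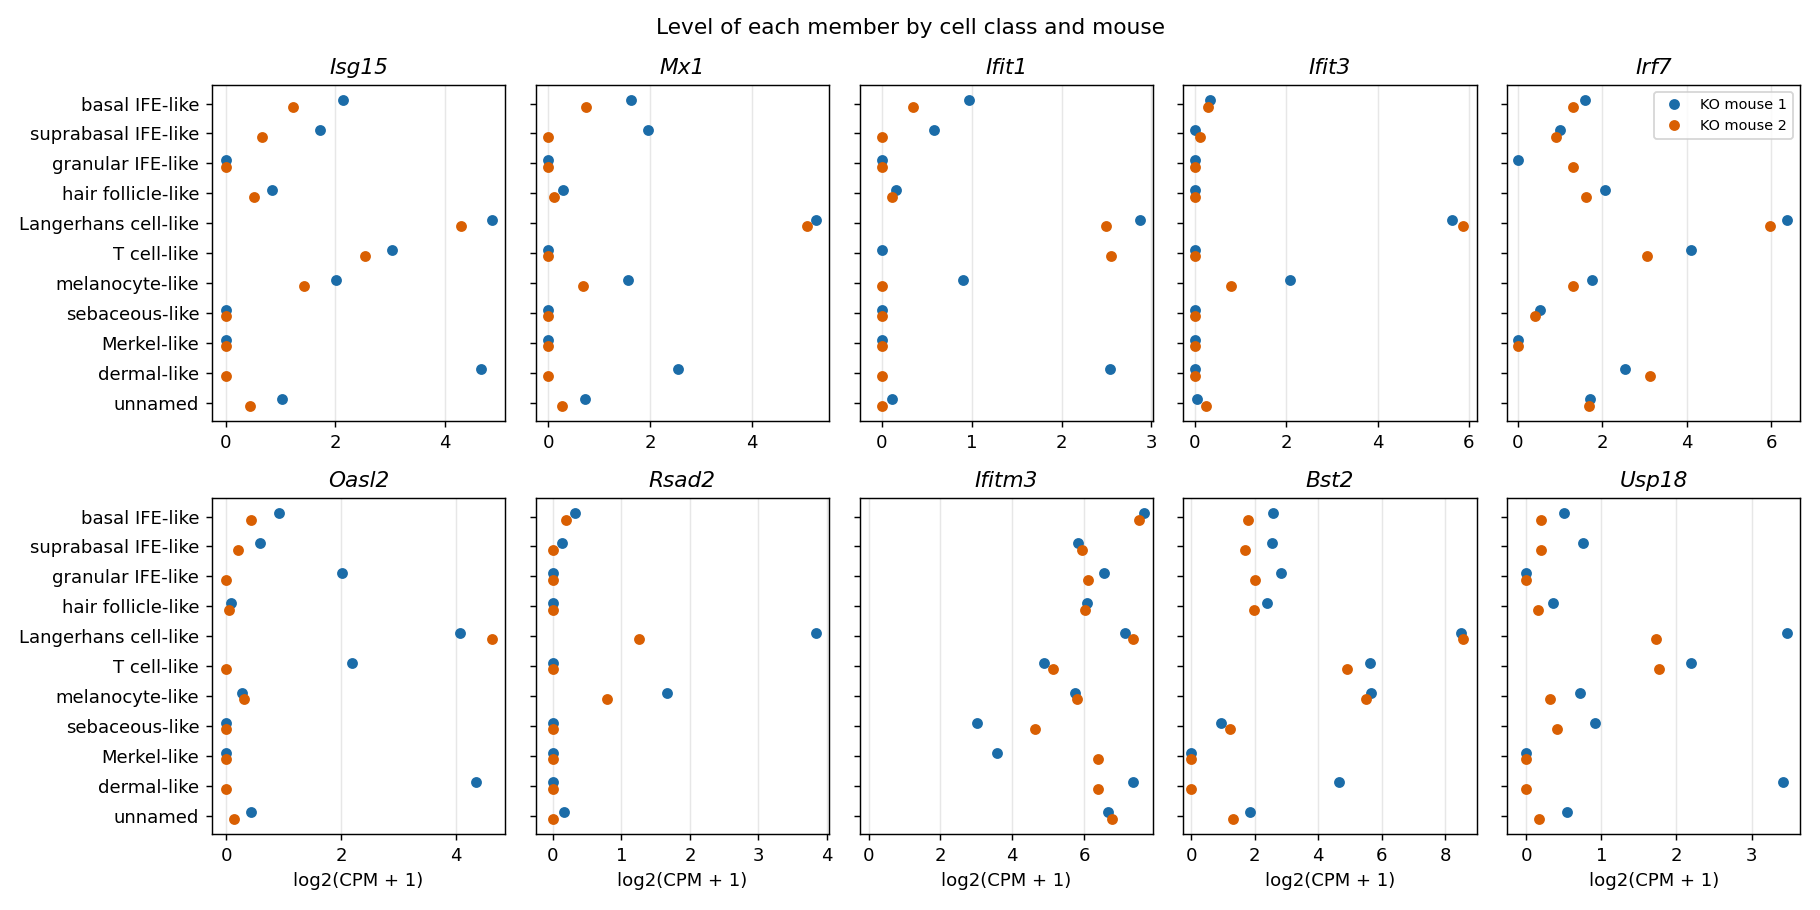
Level of each member, as log2(CPM + 1), by cell class, with 1 point per KO mouse. Langerhans cell-like cells are highest over the mean of the mice for all members but Ifitm3, which is highest in basal IFE-like cells at 204 and 185 CPM, and Bst2 is also raised in T cell-like and melanocyte-like cells.

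Each class was then compared with basal IFE-like cells in edgeR on UMIs summed per mouse and class, with 20 sums and 13020 genes. Of the members, 9 were tested and Rsad2 fell below the count filter. Langerhans cell-like cells were higher for 8 of the 9 and lower for 0, where 26.0% of all genes were called higher and 25.2% lower. The count filter passes a gene by its counts in any class. Isg15, Mx1, Ifit1, Ifit3, Irf7, Oasl2 and Usp18 were at 0.148 to 3.42 CPM in the basal sums, as scaled for the test. They could thus pass mainly by being higher in another class. For them a call of higher was in part set in advance, and the count is a description. The median log2 fold change of the members was 5.09, against -0.11 over all genes. Scaling by DESeq2 size factors moved the median of all genes by 0.11 in this comparison and by 0.16 in that of T cell-like cells, and changed no call of a member. Bst2 rose by a log2 fold change of 7.03 ± 0.28 (SE, adjusted p = 3.1e-15), Ifit3 by 8.09 ± 0.41 (adjusted p = 3.6e-11) and Irf7 by 5.70 ± 0.25 (adjusted p = 1.6e-14). Oasl2, Mx1, Usp18, Isg15 and Ifit1 rose by 5.44, 5.09, 4.77, 3.65 and 3.58 on the log2 scale. With DESeq2 the calls of Mx1 (adjusted p = 0.080) and Ifit1 (adjusted p = 0.14) were lost. Ifitm3 had a log2 fold change of -0.01 ± 0.21 (adjusted p = 0.97), with 141 and 165 CPM in Langerhans cell-like cells beside 204 and 185 CPM in basal ones. When cells were kept only under 5% mitochondrial UMIs it was called higher instead, by 0.44 (adjusted p = 0.042).

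Without any responding cell the levels in Langerhans cell-like cells were lower over the mean of the mice for all 10 members. Responding cells were chosen for having UMIs of members other than Ifitm3 and Bst2. For the members in the definition a lower level was therefore largely set in advance and is no separate finding. Only Ifitm3 and Bst2 did not enter the definition. Isg15 went from a mean of 23.2 to 11.4 CPM, Mx1 from 35.2 to 21.7 CPM, Ifit3 from 53.2 to 31.6 CPM, Irf7 from 71.7 to 48.2 CPM and Oasl2 from 19.8 to 16.9 CPM. Bst2 went from 370.4 to 345 CPM and Ifitm3 from 153 to 123 CPM. The rarer members went from 5.49 to 2.79 CPM for Ifit1, from 6.22 to 3.57 CPM for Usp18 and from 7.34 to 0.665 CPM for Rsad2. In edgeR without these cells Isg15, Mx1, Ifit3, Irf7, Oasl2 and Bst2 were still called higher than in basal IFE-like cells, by 3.46, 5.72, 8.92, 5.46, 6.43 and 7.39 on the log2 scale. The basal class lost its responding cells too, which held 58.4% of its Mx1, 68.8% of its Ifit3 and 56.7% of its Oasl2 UMIs. A fold larger than with all cells is thus no higher level in Langerhans cell-like cells. Ifit1, Usp18 and Rsad2 did not reach the count filter, so no test shows a higher level of these without the responding cells. With all cells kept, 91 genes of the wider interferon list were tested. In Langerhans cell-like cells 82 were higher and 0 lower, where 26.0 and 25.2% of all genes were, with a median log2 fold change of 3.84. The same filter applied to this list, so this count and that of T cell-like cells below are descriptions too. Psmb8 rose by 5.73 ± 0.16 (adjusted p = 3.9e-18) and Xaf1 by 5.02 ± 0.28 (adjusted p = 4.2e-12). Cxcl10 did not pass (log2 fold change 0.53 ± 0.41, adjusted p = 0.30), with about 27.0 CPM beside 19 CPM in basal cells.

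T cell-like cells were few, with 972075 UMIs in all, 558785 in KO mouse 1 and 413290 in KO mouse 2. A single UMI thus weighs about 1 CPM over both mice and more than that within either mouse. Bst2 was at 48.3 CPM in KO mouse 1 and 29.0 CPM in KO mouse 2, against 4.95 and 2.45 CPM in basal IFE-like cells. Irf7 was at 16.1 and 7.26 CPM, on 12 UMIs over both mice, against 2.01 and 1.46 CPM. Both were called higher, 2 of 9 members where 14.8% of all genes were, with log2 fold changes of 3.45 ± 0.53 (adjusted p = 2.6e-05) and 2.80 ± 0.58 (adjusted p = 0.00067). Ifitm3, at 28.6 and 33.9 CPM, was lower by a log2 fold change of -2.69 ± 0.35 (adjusted p = 2.4e-06), where 16.6% of all genes were called lower. Usp18 rested on 3 UMIs and did not pass (adjusted p = 0.11), but it did with the mouse as a block (adjusted p = 0.042) and with DESeq2 (adjusted p = 0.024). Among T cell-like cells 1926 genes were higher and 2156 lower, and with DESeq2 size factors 2311 and 1687, so the split between directions depends on the scaling. Mx1, Ifit3 and Rsad2 had 0 UMIs, which with a floor of 3 counts allows up to 3.09 CPM and so cannot show whether they were below basal cells. Of the wider list, 49 of 91 genes were higher and 1 was lower, among them Psmb8, at 5.53 ± 0.17 (adjusted p = 6.6e-17), and Ly6e, at 4.46 ± 0.17 (adjusted p = 3.0e-15), on the log2 scale.

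Melanocyte-like cells had Bst2 at 49.9 CPM in KO mouse 1 and 44.5 CPM in KO mouse 2, in 31.8 and 31.9% of cells. Bst2 rose against basal IFE-like cells by 3.64 ± 0.26 on the log2 scale (adjusted p = 1.2e-10). Ifit3 was at 3.24 and 0.729 CPM against 0.256 and 0.217 CPM and also passed, at 2.71 ± 0.62 (adjusted p = 0.0016), but with under 5% mitochondrial UMIs it did not (adjusted p = 0.45). These were 2 of 9 members, where 23.9% of all genes were higher. In KO mouse 1, 9 of the 15 Ifit3 UMIs came from 1 responding cell, without which the level was 1.30 CPM. Ifitm3 was lower by a log2 fold change of -1.95 ± 0.21 (adjusted p = 4.1e-08), 1 of 9 where 23.9% of all genes were lower. Of the melanocyte-like clusters, c17 had 47.0% of its cells in the top 5% of doublet scores, and Bst2 was at 34.5 and 37.2 CPM in it beside 58.5 and 48.6 CPM in c11. The part of doublets in the level was not tested. The wider list split evenly, with 22 higher and 22 lower of 91.

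In suprabasal IFE-like cells 1 of 9 members passed the test against basal ones. Ifitm3 was at 55.5 CPM in KO mouse 1 and 60.8 CPM in KO mouse 2 and was lower by a log2 fold change of -1.5 ± 0.20 (adjusted p = 1.5e-06), where 23.3% of all genes were lower. No member was called higher, where 22.8% of all genes were. Mx1 had 29 UMIs in KO mouse 1, 20 of them in 1 responding cell, and 0 in KO mouse 2. Irf7, which did not pass otherwise, was called lower with under 5% mitochondrial UMIs (log2 fold change -2.74, adjusted p = 0.011). Of the wider list, 10 genes were higher and 20 lower.

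Hair follicle-like cells, as named here, held no responding cell and had the members at low levels other than Irf7, Ifitm3 and Bst2. Cluster c12, led by the hair follicle marker Shh, stayed unnamed and is not in this class. The 2 unnamed responding cells lay in c9, which shared the leading genes Prss35 and Edn1 with the reclustered group led by Col14a1 and Lhx2. The absence of responding cells thus depends on the naming. Isg15 was at 0.791 CPM in KO mouse 1 and 0.439 CPM in KO mouse 2, Mx1 at 0.226 and 0.0798 CPM and Oasl2 at 0.0565 and 0.0399 CPM. Of the 9 members, 5 were called lower, where 13.6% of all genes were, namely Isg15, Mx1, Ifit3, Oasl2 and Ifitm3. Isg15 had a log2 fold change of -2.01 ± 0.56 (adjusted p = 0.0092), Mx1 of -3.14 ± 1.00 (adjusted p = 0.024), Oasl2 of -3.34 ± 0.92 (adjusted p = 0.0086) and Ifitm3 of -1.67 ± 0.19 (adjusted p = 4.9e-07). Ifit3 had 0 UMIs, which puts it at least 3.29-fold lower than in basal cells with a floor of 3 counts over the class. Without any responding cell the calls of Mx1 (adjusted p = 0.12), Oasl2 (adjusted p = 0.072) and Ifit3 (adjusted p = 0.18) were lost, and Irf7 was called higher (log2 fold change 0.79, adjusted p = 0.033). With DESeq2 the calls of Isg15 (adjusted p = 0.15) and Mx1 (adjusted p = 0.37) were lost, with robust edgeR, chosen after seeing the data, so were those of Isg15 (adjusted p = 0.052) and Mx1 (adjusted p = 0.19), and without cells of high doublet score that of Ifit3 (adjusted p = 0.053). Ifit1 did not pass (adjusted p = 0.058) but did with the mouse as a block (adjusted p = 0.014). Of the 91 genes tested of the wider list, 6 were higher and 27 lower, where 15.4 and 13.6% of all genes were. Cxcl10 was lower by a log2 fold change of -3.54 ± 0.39 (adjusted p = 4.9e-07) and Tap1 higher by 1.24 ± 0.14 (adjusted p = 3.2e-07).

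**Figure D4:**
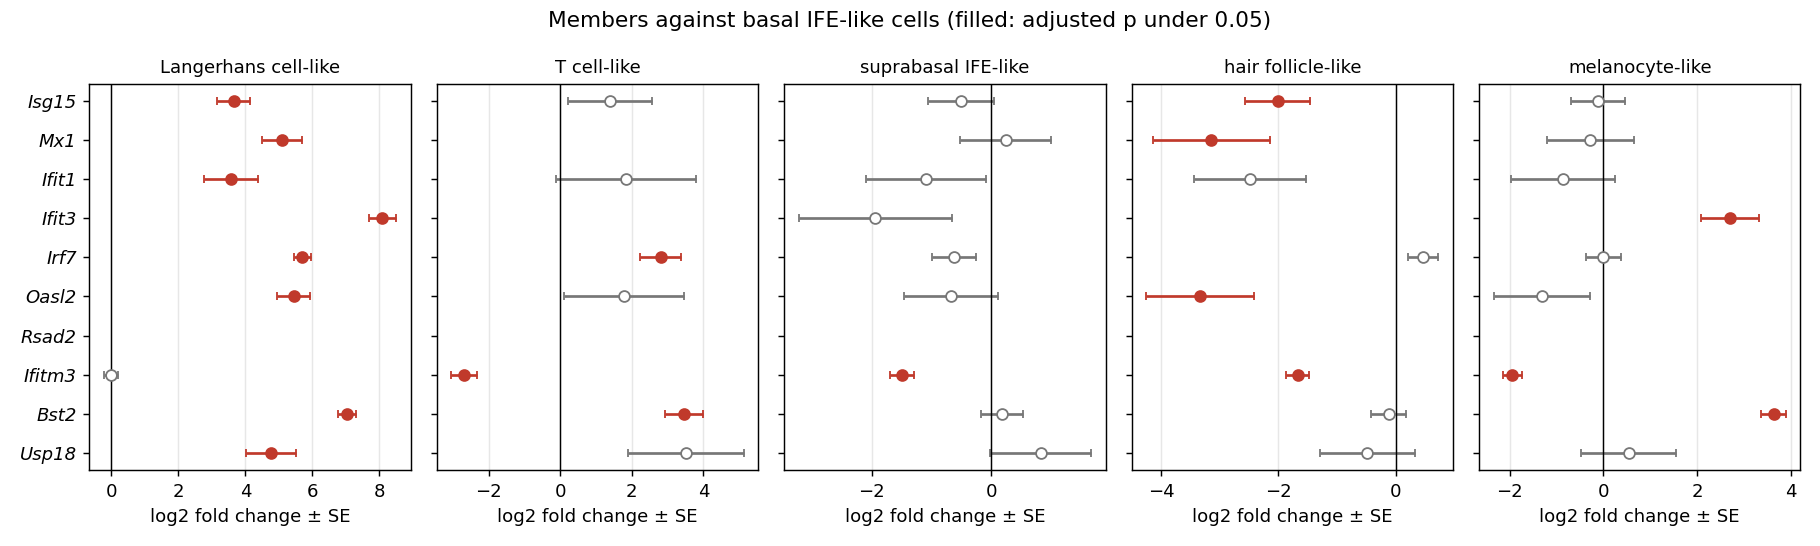
Log2 fold change ± SE of each member in 5 classes against basal IFE-like cells (edgeR on sums per mouse and class, 2 mice), filled where adjusted p was under 0.05; members at 0 UMIs in a class and Rsad2 are not drawn. All 8 members drawn filled for Langerhans cell-like cells lie to the right, Ifitm3 lies to the left in the other 4 classes, and Bst2 lies to the right in T cell-like and melanocyte-like cells.

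Sebaceous-like cells served as the reference for UMIs found without a response. They were deeper than basal IFE-like cells, with medians of 18232 UMIs in KO mouse 1 and 16814 in KO mouse 2 against 9836 and 10009. They had 0 UMIs of Isg15, Mx1, Ifit1, Ifit3, Oasl2 and Rsad2 in 98 and 148 cells. This allows shares of cells with a UMI of up to 3.69 and 2.46%, by the exact binomial interval. Irf7 and Usp18 were detected in them, at 0.388 and 0.612 CPM over the mean of the mice. For Irf7 this lay below the basal levels given above. As scaled for the edgeR test, Usp18 was at 0.416 and 0.148 CPM in basal IFE-like cells of KO mice 1 and 2. In basal cells as a class Usp18 thus did not lie above this reference. Bst2 was found in 2.04 and 2.03% of sebaceous-like cells, beside 2.97 and 1.91% of basal IFE-like cells. Whether the Bst2 UMIs of sebaceous-like cells are background was not tested. A single Bst2 UMI in a basal cell is therefore not read as expression here. At 3000 UMIs per cell the shares for Bst2 were 0 and 0.685% against 1.15 and 0.768%. Ifitm3 was found in 11.2 and 25% of sebaceous-like cells and in 66.6 and 65.7% of basal ones. At 3000 UMIs per cell these shares were 2.04 and 2.74% against 35.9 and 36.6%. The share of cells with Ifitm3 thus lay far above the reference at equal depth.

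Ifitm3 was found in most basal cells, and its level varied among the clusters. It was highest in cluster c2, led by H19 and Igf2, at 369 CPM in KO mouse 1 and 316 CPM in KO mouse 2, and in c3, which had Dcn among its leading genes, at 275 and 238 CPM. The dividing basal clusters c6 and c13 lay between 135 and 160 CPM in both mice, and c0, led by Ccl27a, lay at 102 and 87.9 CPM. In the suprabasal IFE-like class it fell from 72.1 and 73.1 CPM in c7 to 8.39 and 14.7 CPM in c19, which was led by Flg. In the granular IFE-like cluster c20 it was at 80.3 ± 16.6 CPM (mean and SD of the mice). Among hair follicle-like clusters it was at 154 and 127 CPM in c1, which had Lgr5 among its leading genes, and at 24.4 and 30.4 CPM in c10 and 34.1 and 38.8 CPM in c14. In both mice c2 was highest and c3 second among the basal clusters. These levels come from the cells that were clustered and are given as a description.

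**Figure D5:**
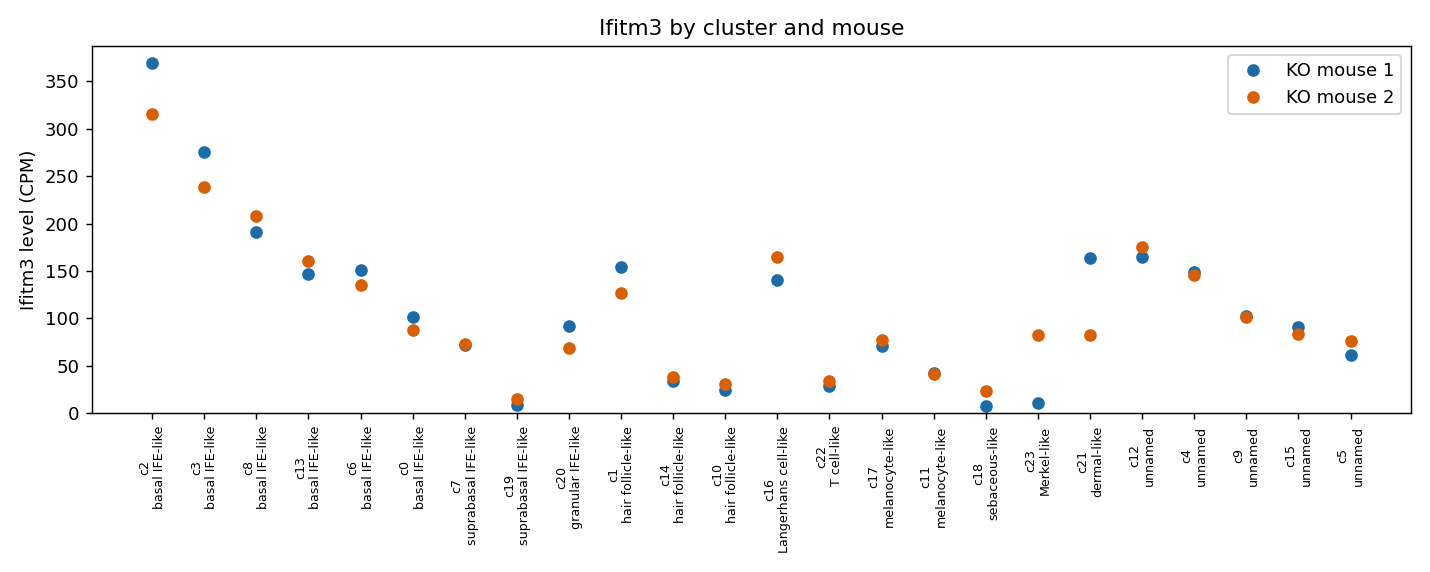
Ifitm3 level in CPM by cluster, grouped by class, with 1 point per KO mouse. The H19-led basal cluster c2 is highest in both mice, at 369 and 316 CPM, and the Flg-led suprabasal cluster c19 is at 8.39 and 14.7 CPM.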

How the data were processed

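Epidermal single-cell libraries of 2 Chrm3 KO mice were analysed, 1 library per mouse, with 10816 and 15867 barcodes and 109756784 and 166441732 UMIs. The submitters' processing notes name Cell Ranger 3.0.2 and mm10. The values the authors deposited are raw UMI counts, with no normalization and before any filter on cells. Columns with no mapped sample numbered 0. The members and lists were chosen with earlier results of these data known.

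The filter kept cells in which 900 to 7700 genes were detected and mitochondrial UMIs stayed under 10%. In Seurat 5.3.0 (R 4.3.3) counts were log-normalized, 2000 variable genes chosen, the mice integrated over 30 dimensions and cells clustered at resolution 0.8. Clusters were named from marker lists, by markers among the 10 leading genes or else by a mean log2 enrichment of at least 0.5, and needed 3 enriched markers. A cluster led by dividing markers took the best of the basal, suprabasal and hair follicle lists, and needed only a mean log2 enrichment above 0. The basal clusters c6 and c13 were named this way, at 0.329 and 0.323. The 5 responding basal cells scored as G2/M lay in them. These minimums were set after the clusters were seen. Doublets were scored with Scrublet in scanpy 1.11.5. Its automatic threshold marked almost no cells in KO mouse 1, so the top 5% of scores per mouse served instead, a choice made after seeing this.

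UMI counts were summed per mouse and class (20 sums, 10 residual degrees of freedom) and tested in edgeR 4.0.16 (TMM, filterByExpr, quasi-likelihood F-test, Benjamini-Hochberg over 13020 genes, threshold 0.05). Cells are not replicates, and p-values measure the spread between sums of 2 mice. Standard errors were derived from the F statistic of each contrast. The alternatives included DESeq2 1.42.0 and the mouse as a block. The mice's differences correlated across genes between classes with r from -0.066 to 0.36 (median 0.025, 45 pairs), and equal numbers mark 1 animal, which pairs the sums. Differences between classes are in part given by the clustering of the same cells. Tested on simulated data, the edgeR test recovered most changed genes. In the suprabasal, hair follicle and melanocyte comparisons, however, the false share was 13.0, 17.2 and 12.7%, above the nominal level. The check was loosened after it failed, and its final form set no limit on that share.

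Named genes were all members, the 12 genes of the interferon list with the highest fold in responding basal cells and the 15 genes most like the members by that fold, and 1 gene among them is not reported here. Thinning drew 3000 UMIs from each cell. Python 3.11.15 with scipy 1.17.1 gave the intervals, and matplotlib 3.10.9 the figures.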

Additional observations from a re-analysis of the deposited data

How the results depend on the processing

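Responding basal IFE-like cells made up 0.184% of the class over the mean of the mice, and between 0.0814% and 0.286% with 1 mouse left out. The share was 0.378% with at least 3 of the 8 members, 0.018% at 3000 UMIs per cell, 0.453% with under 5% mitochondrial UMIs and 1.65% for the interferon-led cluster. In the hair follicle-like comparison 3769 genes were called, and 1667 with under 5% mitochondrial UMIs. In the melanocyte-like comparison 6214 were called, and 3847 with that limit, which also turned Ifitm3 in Langerhans cell-like cells from no call to higher, by 0.44. With fewer cells fewer genes reached the filter. Over 42 log2 fold changes of members with at least 1 UMI in the class, and 321 tests under alternatives, 303 kept their direction and side of the threshold, 9 lost the call, 8 gained one and 1 reversed. Some results could not be tested without the responding cells or with under 5% mitochondrial UMIs. They are not among the 321 and not counted as lost. Ifit3 in hair follicle-like cells, at 0 UMIs, lost its call under 2 further alternatives. The losses were in Langerhans cell-like, hair follicle-like and melanocyte-like cells, and the cause was not tested. With the mouse as a replicate block, 7029, 4295, 7002, 5165 and 7105 genes were called in Langerhans cell-like, T cell-like, suprabasal, hair follicle-like and melanocyte-like cells, and the block changed the call of Usp18 in T cell-like and of Ifit1 in hair follicle-like cells and of no other member. Leaving out cells of high doublet score called Ifit1 (adjusted p = 0.043) lower in hair follicle-like cells and Oasl2 (adjusted p = 0.047) lower in melanocyte-like cells, and with no count filter Ifit1 was called (adjusted p = 0.0042), all by edgeR. Leaving out a mouse left no residual degrees of freedom, so those settings gave values without a test.

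Depth limits these values. A cell with few UMIs can hold a member and show none, the responding cells number 12 in the basal class, and intervals cover counting error only. With 2 mice and 1 library each, differences between mice cannot be told apart from those between libraries.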
